A study of Arabidopsis thaliana with 9 samples.

Results

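A set of 8 chromatin genes that act on FLC, out of 33603 genes, with 11 of the 41683 transcript models quantified, were followed in early heart embryos of Arabidopsis. The genes were listed by locus identifier, with earlier results of these data known. Of the 8, 5 encode JmjC histone demethylases for which methylated H3K27 is a known substrate (ELF6, REF6, JMJ30, JMJ32 and JMJ13), and 3 encode trithorax-type SET methyltransferases (ATX1, ATX2 and ATXR7). RNA from 9 libraries was analysed, 3 for each of 3 genotypes, and every library pooled 20 dissected embryos whose cDNA was amplified by Smart-seq2 and read as paired 75-base reads in 2 runs. All genotypes share the Col-0 background. Col FRI carries an active FRIGIDA, which Col-0 lacks. 35S::FCA carries an FCA overexpression construct under the 35S promoter, which drives expression broadly rather than in a chosen cell type, and it keeps the inactive fri of Col-0. Col-0 was the wild type. The seedlings that became Col FRI plants passed through 6 weeks of cold, a treatment described in the labels for this genotype alone, so an active FRI cannot be told apart from the cold given to the parents. Plants of all genotypes then grew in cycles of long light and short dark, and the hour at which embryos were collected is not given in the sources used here.

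FLC encodes a MADS-box repressor of flowering. Vernalization silences it through Polycomb, which leaves trimethylated H3K27 over the gene, and the silent state is lost again in the embryo of the next generation. JmjC demethylases remove methyl groups from H3K27, and ELF6 is known for its part in that embryonic reset, whereas trithorax methyltransferases place methyl groups on H3K4 and favour active transcription at FLC. JMJ30 also belongs to the circadian system: in seedlings its transcript peaks in the evening, and the morning MYB factors CCA1 and LHY repress it.

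Estimated counts per library ran from 15166826 to 18768286 for Col FRI, 17996274 to 25847613 for 35S::FCA, and 20372634 to 24659741 for Col-0. Organelle transcripts took 19.5 to 20.8% of TPM in Col FRI, 15.8 to 17.4% in 35S::FCA, and between 11.9 and 22.8% in Col-0, whose replicate 3 was the highest. TPM, a measure corrected for transcript length, is a share of all entries in the index, so it was also rescaled to nuclear genes other than those of ribosomal and small RNAs, called nuclear TPM below. FRI was higher in Col FRI than in Col-0 (log2 fold change 1.11, edgeR adjusted p = 0.00981), FLC was higher as well (2.59, adjusted p = 1.92e-07), and FCA was higher in 35S::FCA than in Col-0 (0.76, adjusted p = 0.032), each in the direction the labels give. These calls held in 14 of 18 alternatives for FRI, 18 of 18 for FLC and 6 of 17 for FCA, whose adjusted p was 0.157 with only these 2 genotypes fitted. Of 13 embryo identity markers all passed the filter on low counts, with summed levels of 332 to 342 TPM in Col FRI, 345 to 456 TPM in 35S::FCA and 311 to 367 TPM in Col-0. The 6 seed coat markers summed to 16.9 to 18.4 TPM in Col FRI, 19.9 to 23.6 TPM in 35S::FCA and 15.4 to 32.5 TPM in Col-0, again highest in Col-0 replicate 3, and the 8 endosperm markers summed to 2.98 to 3.31, 2.53 to 3.04 and 1.85 to 5.05 TPM in the same order of genotypes. In each of the 3 genotypes, 2 of the 8 endosperm markers exceeded 3 counts in no library. The 3 libraries of Col FRI differed from one another little more than counting noise allows (median scaled chi-square 1.16 to 1.73, where 1 is sampling noise), while 35S::FCA gave 3.43 to 18.3 and Col-0 gave 7.70 to 30.1. The labels call them biological replicates. In these bulk libraries, fewer cells of a type and less RNA per cell cannot be told apart.

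All 8 genes were detected in every library, and JMJ30 was the most abundant member in each genotype. On the TPM scale the order JMJ30, REF6, JMJ13, ELF6 held in all 3 genotypes, and the trithorax genes followed. In Col FRI the means were 13.2 ± 0.311 TPM for JMJ30, 7.84 ± 0.303 TPM for REF6, 6.34 ± 0.179 TPM for JMJ13 and 2.85 ± 0.276 TPM for ELF6 (SD, n = 3), and no neighbours in that order overlapped. In 35S::FCA these 4 genes were also separate from one another, while in Col-0 the libraries of REF6 and JMJ13 overlapped. ATXR7, ATX2 and ATX1 lay between 1.33 and 1.63 TPM on average in every genotype and overlapped their neighbours in that trio in all 3. JMJ32 had the lowest mean of the members, at 0.823 TPM in Col FRI, 1.12 TPM in 35S::FCA and 0.975 TPM in Col-0. In 35S::FCA its libraries (1.04 to 1.27 TPM) overlapped those of ATX1 (1.06 to 1.58 TPM).

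**Figure D1:**
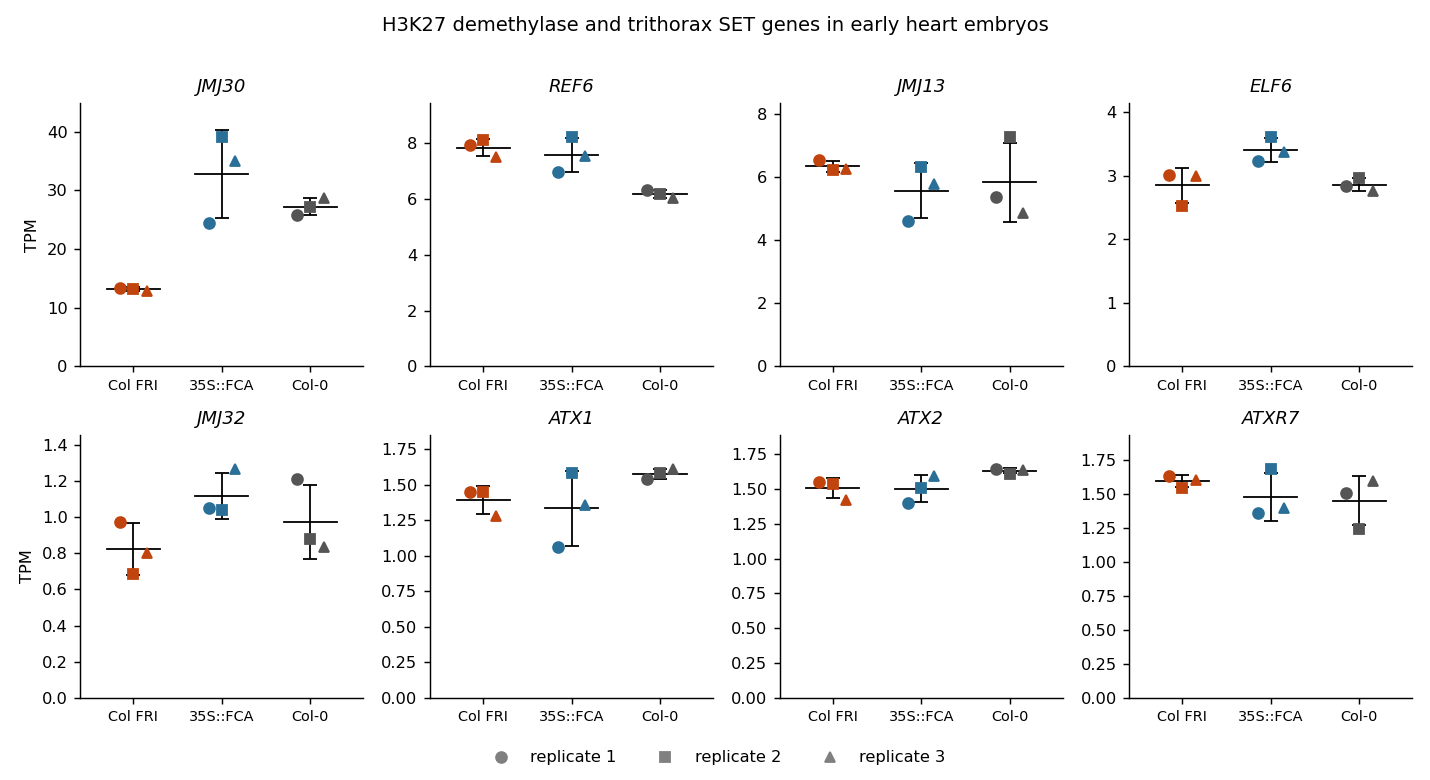
TPM of the 8 genes in each library, by genotype, with 1 panel per gene and every vertical axis starting at 0. Symbols are libraries, horizontal lines are means and bars are SD (n = 3). JMJ30 sits at 12.8 to 13.4 TPM in Col FRI, below all libraries of 35S::FCA and Col-0, and REF6 sits above Col-0 in Col FRI.

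Among the demethylases, Col FRI had less JMJ30 and more REF6 than Col-0, and no trithorax gene passed the test. The edgeR quasi-likelihood test over 18585 genes (all 9 libraries, Benjamini-Hochberg adjusted p under 0.05) called 1 of the 8 members higher in Col FRI than in Col-0, where 6.04% of all genes tested were called higher, and 1 of 8 lower, where 7.22% were. Under a stricter rule (adjusted p under 0.001 and more than 2-fold) it called 0 of the 8 and 0.183% of all genes. The median log2 fold change was -0.01 over the members and -0.01 over all genes. At 8 genes, 1 call in a direction is too few to read as a property of the group, and the results below are those of single genes.

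**Figure D2:**
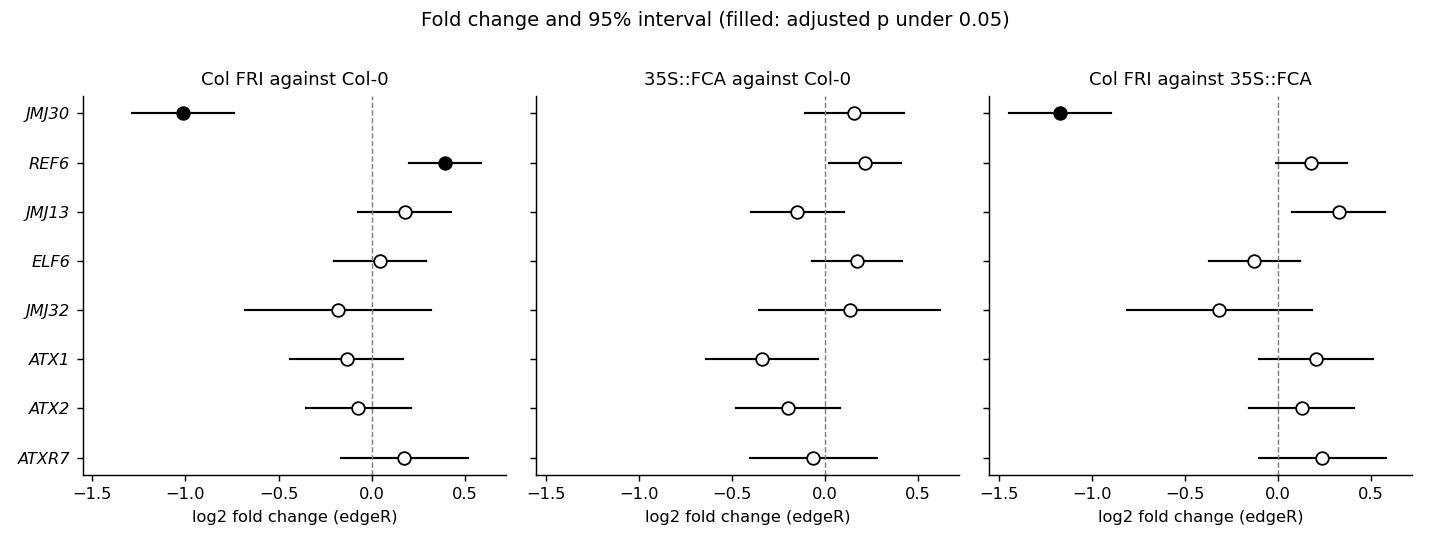
Log2 fold change of each gene on the horizontal axis, in the 3 comparisons, with its 95% interval as a line. Filled points passed an adjusted p of 0.05 in edgeR. JMJ30 is the member with filled points in both comparisons of Col FRI, at -1.01 against Col-0 and -1.17 against 35S::FCA, and REF6 is filled at 0.39 against Col-0.

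JMJ30 (AT3G20810, listed by RefSeq as JMJD5; chr3:7275645-7278420, plus strand, TAIR10.1) demethylates H3K27 at FLC with its relative JMJ32 in seedlings grown warm, as well as having its place in the clock. It had 13.4, 13.2 and 12.8 TPM in the Col FRI libraries, against 25.8, 27.2 and 28.7 TPM in the Col-0 libraries. Every Col FRI library lay below every Col-0 library. The log2 fold change was -1.01 (standard error 0.12, 95% interval -1.29 to -0.74, edgeR adjusted p = 0.0016), and JMJ30 had rank 55 by p among the 9469 genes with a lower estimate in Col FRI. On nuclear TPM the 3 Col FRI libraries had 23.3, 22.0 and 21.4, against 36.6, 40.3 and 55.2 in Col-0, so the groups stayed apart. The call was made in 17 of 18 alternative settings, with log2 fold changes of -1.11 to -0.87. It was lost where the 3 Col FRI libraries were summed to 1 sample (-1.02, adjusted p = 0.182). Without Col-0 replicate 3, the library with the most organelle RNA and seed coat marker transcripts, the log2 fold change was -0.87 (adjusted p = 8.14e-04).

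The same gene separated Col FRI from 35S::FCA. The 35S::FCA libraries had 24.4, 39.0 and 35.0 TPM of JMJ30, and all of them exceeded the 3 Col FRI values given above. JMJ30 was the only member called in that comparison, so 1 of 8 was lower and 0 were higher, beside 5.92% and 7.00% of all genes. Its log2 fold change was -1.17 (standard error 0.12, 95% interval -1.45 to -0.90, edgeR adjusted p = 4.35e-04), which also met the stricter rule, as 0.560% of genes did. In 17 of 18 alternatives the call held, between -1.28 and -1.12, and with the Col FRI libraries summed the adjusted p was 0.0701. 35S::FCA and Col-0 did not differ in JMJ30 beyond their spread: the log2 fold change was 0.16 (95% interval -0.11 to 0.42, edgeR adjusted p = 0.508), and the 35S::FCA libraries spread widely (SD 23.0% of the mean, against 2.36% in Col FRI and 5.21% in Col-0). Replicate 1 of 35S::FCA, at 24.4 TPM, lay below the Col-0 libraries and the other two lay above them.

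Short sequences near the JMJ30 start are shown because they are the clock-related motif of this gene. The evening element, AAAATATCT, is the site that CCA1 and LHY are known to bind in evening-phased genes. It was searched on both strands from 250 bases before to 150 bases after each RefSeq gene start of TAIR10.1, the part after the start having been added once the JMJ30 matches were known to lie there. JMJ30 had 3 matches, all on its own strand, beginning at bases 11, 38 and 100 counted from 1 at the gene start, and 0 in the 250 bases before it. Depending on the RefSeq model, the first 2 lie in the 5′ untranslated region or just before the transcript, and the last lies in the 5′ untranslated region. The first and last matches of JMJ30 and the match 53 bases before the start of LUX, an evening-complex gene described below, read as follows, 5′ to 3′ with the element in capitals.
JMJ30, first match, chr3:7275645-7275673: atagatacgaAAAATATCTgatcctaatc
JMJ30, last match, chr3:7275734-7275762: tcatcactctAAAATATCTcccaccacat
LUX, chr3:17182979-17183007: tagaagatctAAAATATCTagctaactcg
In the 250 bases before the start alone, at least 1 match was present in 2.36% of 27443 genes. In the longer window, at least 1 match was present in 3.35% of them and at least 3 in 0.0146%, which is 4 genes. Because that window was fitted to the JMJ30 matches and 3 is the count of JMJ30 itself, these shares are not a test of JMJ30. No other member had a match in this window, and 5 of 8 evening clock genes and 1 of 7 morning clock genes had one. Neither the CCA1 binding site AAAAATCT, present in 2762 of 27443 genes, nor the G-box CACGTG, present in 9.21%, was found in the window of any member, whereas all 7 morning clock genes had a G-box. A match is a run of letters and was not tested for binding, and the windows without one say nothing about the factors.

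Other genes of the clock also differed in Col FRI. As the hour of collection is not given, genotype cannot be told apart from a different hour for these genes or for JMJ30. Of 7 listed morning genes 5 passed the filter on counts, and 3 were higher in Col FRI than in Col-0 with 0 lower (median log2 fold change 0.72, beside -0.01 over all genes). Of 8 evening genes 2 were lower and 0 higher (median -0.25). Over all genes 6.04% were called higher and 7.22% lower. LHY, a morning MYB repressor, had 1.86, 1.45 and 1.58 TPM in Col FRI, against 0.611, 0.604 and 0.428 TPM in Col-0. All Col FRI libraries exceeded all Col-0 libraries, with a log2 fold change of 1.65 (edgeR adjusted p = 0.00227), called in 17 of 18 alternatives. LNK1 and LNK2, coactivators in the clock, were higher by log2 fold changes of 0.61 (adjusted p = 0.00302) and 1.02 (adjusted p = 0.00922), called in 15 and 14 of 18 alternatives. CCA1, the partner of LHY, had a log2 fold change of 0.72 and an edgeR adjusted p of 0.0693.

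Of the evening genes, LUX encodes the DNA-binding subunit of the evening complex. It had 7.39, 6.42 and 6.47 TPM in Col FRI, against 12.8, 14.9 and 8.60 TPM in Col-0. The groups did not overlap, although Col-0 replicate 3 came close, and the log2 fold change was -0.77 (edgeR adjusted p = 0.00629, called in 15 of 18 alternatives). ELF4, another subunit, was lower by a smaller margin (log2 fold change -0.48, edgeR adjusted p = 0.0384), and that call held in 9 of 18 alternatives. For Col FRI against 35S::FCA, LHY (1.95), PRR7 (0.87), LNK2 (0.78) and LNK1 (0.74) were higher, with edgeR adjusted p from 5.70e-04 to 0.0221, and LUX (-0.46) and ELF4 (-0.46) were lower, with edgeR adjusted p of 0.0445 and 0.0455. PRR5 (0.54) and ELF3 (0.45), which are listed as evening genes, were higher in that comparison, with edgeR adjusted p of 0.0429 and 0.0221. Against Col-0, Col FRI had log2 fold changes of 0.07 for PRR5 and 0.01 for ELF3 (edgeR adjusted p = 0.795 and 0.962). For 35S::FCA against Col-0 they were -0.47 and -0.44 (edgeR adjusted p = 0.135 and 0.0688). The LHY, LNK1, PRR7, ELF3 and LNK2 calls held in 17, 15, 13, 11 and 10 of 18 alternatives, and the LUX, ELF4 and PRR5 calls in 8, 9 and 9. In 35S::FCA against Col-0 edgeR, DESeq2 and both limma fits called 0 of the 8 evening and 0 of the 5 morning genes tested, with 3 and 1 of them at an unadjusted edgeR p under 0.05. As edgeR called only 0.490% of all genes higher and 1.03% lower there, these 0 calls are not read as a property of clock genes. Fewer clock genes passed with limma on log2 TPM, which called 0 evening genes and 1 morning gene in each comparison of Col FRI. The limma fits also called fewer of all genes. They called 479 and 501 in Col FRI against Col-0, where edgeR called 2464. In Col FRI against 35S::FCA they called 1033 and 1030, where edgeR called 2402. The part of these clock genes in the JMJ30 difference was not tested.

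**Figure D3:**
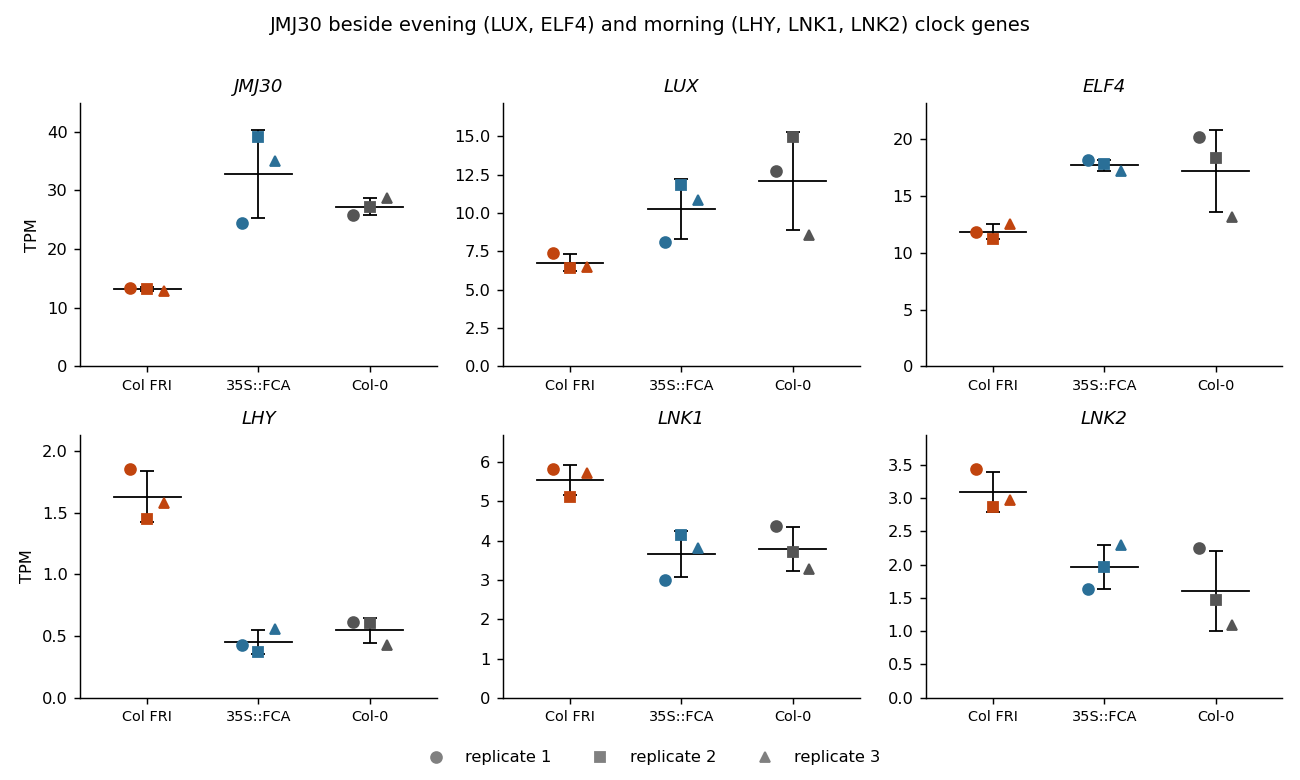
TPM per library of JMJ30, of the evening genes LUX and ELF4, and of the morning genes LHY, LNK1 and LNK2, by genotype. Symbols are libraries, lines are means and bars are SD (n = 3). In Col FRI, JMJ30 and LUX lie below Col-0 (LUX at 6.42 to 7.39 TPM against 8.60 to 14.9 TPM) and LHY lies above it (1.45 to 1.86 TPM against 0.428 to 0.611 TPM).

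Out of 15755 genes compared, with no clock gene set aside, those whose log2 TPM followed JMJ30 most closely over the 9 libraries were PYL4, an abscisic acid receptor (Pearson r = 0.99), HLECRK (0.98), annotated as a lectin receptor kinase, and IDD12 (0.98), an INDETERMINATE DOMAIN zinc-finger gene. PYL4 averaged 11.6 TPM in Col FRI, 25.8 TPM in 35S::FCA and 21.3 TPM in Col-0. The 9 points fall into the 3 genotypes and share depth and library, so the coefficients mix differences between genotypes with differences between libraries within a genotype.

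JMJ30 was also the only member with more than 1 transcript model in use. Model 1 (1600 bases) took 86.5 to 98.4% of JMJ30 TPM in Col FRI, 88.3 to 94.1% in 35S::FCA, and between 89.0 and 94.4% in Col-0. Model 2 (1665 bases) took nearly all of the rest, and model 3 had 0 counts in every library except Col-0 replicate 2, which had 9.87. Isoform usage of JMJ30, tested with edgeR among 3679 genes, was not called in Col FRI against Col-0 (adjusted p = 0.81, with 1.88% of genes called), in 35S::FCA against Col-0 (adjusted p = 0.997, 0.435% called) or in Col FRI against 35S::FCA (adjusted p = 0.862, 2.12% called). Both models had lower means in Col FRI. Model 1 had 11.1 to 13.2 TPM in Col FRI, against 24.2 to 25.6 TPM in Col-0, with no overlap. Model 2 averaged 0.867 ± 0.781 TPM in Col FRI, against 2.42 ± 0.844 TPM in Col-0 (SD, n = 3 each), and its libraries overlapped. ATX2 has 2 models in the index, and the second had 0 counts in all 9 libraries. The other members have 1 model each.

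REF6 (AT3G48430, chr3:17935256-17940792, plus strand), a demethylase whose zinc fingers read DNA sequence, went the other way. It had 7.93, 8.09 and 7.51 TPM in Col FRI, against 6.31, 6.17 and 6.02 TPM in Col-0. The lowest Col FRI library exceeded the highest Col-0 library, and the same held on nuclear TPM, with 12.6 to 13.7 in Col FRI and 8.93 to 11.6 in Col-0. The log2 fold change was 0.39 (standard error 0.09, 95% interval 0.20 to 0.59, edgeR adjusted p = 0.0179). It was positive in 18 of 18 alternatives, from 0.30 to 0.47, and called in 11. The call was lost with limma on log2 TPM (adjusted p 0.206 and 0.213), with the Col FRI libraries summed (0.387), without any 1 Col FRI library (0.0569 to 0.0815) and without Col-0 replicate 1 (0.0566).

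In 35S::FCA, REF6 had 6.97, 8.20 and 7.54 TPM, also above all 3 Col-0 libraries on this scale, but on nuclear TPM the groups overlapped (10.7 to 11.9 in 35S::FCA, 8.93 to 11.6 in Col-0). The log2 fold change of 35S::FCA against Col-0 was 0.22 (95% interval 0.02 to 0.41, edgeR adjusted p = 0.211), and it was called only without Col-0 replicate 3 (0.30, adjusted p = 0.0385). Col FRI and 35S::FCA did not differ in REF6 by the test (0.18, 95% interval -0.01 to 0.37, edgeR adjusted p = 0.195). Their libraries overlapped in TPM but not on nuclear TPM, where Col FRI had 12.6 to 13.7 and 35S::FCA had 10.7 to 11.9. REF6 was thus called against Col-0 in Col FRI and not in 35S::FCA, and the test of the difference between these genotypes was not passed. FZL, a gene of thylakoid organization, followed REF6 most closely over the 9 libraries (Pearson r = 0.99), ahead of AT1G69610 (0.98) and AT5G16220 (0.97). These are the highest of 15755 coefficients over 9 points in 3 genotypes, with the same limit as those of JMJ30. FZL averaged 6.22 TPM in Col FRI, 6.07 TPM in 35S::FCA and 4.45 TPM in Col-0.

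**Figure D4:**
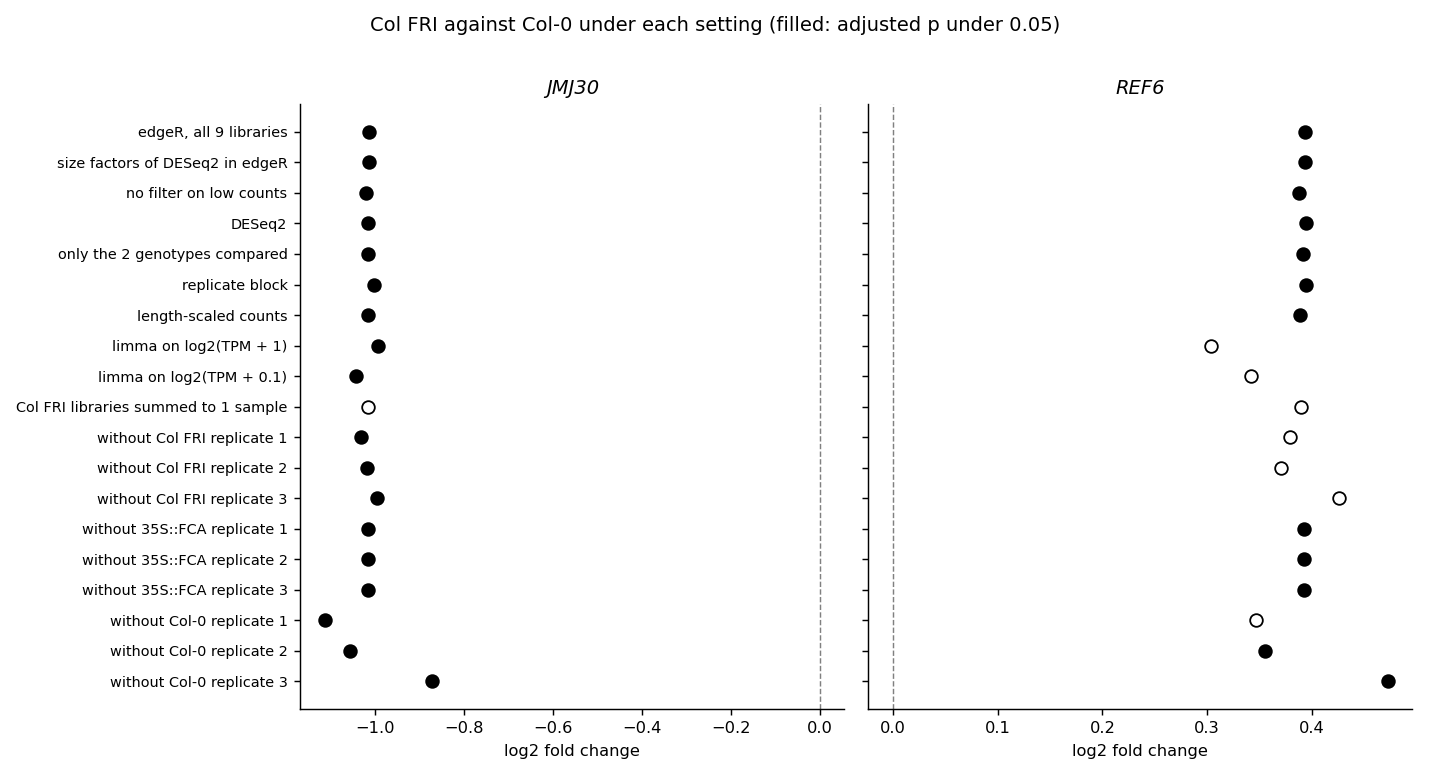
Log2 fold change of JMJ30 and of REF6 in Col FRI against Col-0 under the reported edgeR fit (top row) and each of 18 alternatives (1 row each). Filled points had an adjusted p under 0.05. JMJ30 stays between -1.11 and -0.87 and is open in 1 row. REF6 stays between 0.30 and 0.47 and is open in 7 rows.

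JMJ13 (AT5G46910, chr5:19046339-19051379, plus strand), a demethylase known to delay flowering, differed more among replicates. It had 6.55, 6.22 and 6.26 TPM in Col FRI, 4.60, 6.31 and 5.79 TPM in 35S::FCA, and 5.38, 7.25 and 4.85 TPM in Col-0. The SD was 2.82% of the mean in Col FRI, 15.8% in 35S::FCA and 21.6% in Col-0, and each pair of genotypes overlapped. Against Col-0, Col FRI had a log2 fold change of 0.18 (95% interval -0.07 to 0.43, edgeR adjusted p = 0.324) and 35S::FCA one of -0.15 (95% interval -0.40 to 0.10, adjusted p = 0.512). For Col FRI against 35S::FCA it was 0.32 (95% interval 0.07 to 0.58, edgeR adjusted p = 0.0861), and on nuclear TPM these groups did not overlap (10.3 to 11.4 in Col FRI, 7.04 to 9.16 in 35S::FCA). That difference passed the threshold when the 2 genotypes were fitted alone (adjusted p = 0.00912), without Col-0 replicate 1 (0.045) or without Col-0 replicate 2 (0.0188), and JMJ13 was called against Col-0 only without Col-0 replicate 2 (0.32, adjusted p = 0.0406). An overlapping gene on the other strand, AT5G06885, shares part of this locus.

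ELF6 (AT5G04240, chr5:1169153-1174992, plus strand), the demethylase tied to the embryonic reset of FLC, did not pass the test in any comparison. It had 3.01, 2.53 and 3.00 TPM in Col FRI, 3.23, 3.60 and 3.36 TPM in 35S::FCA, and 2.84, 2.97 and 2.76 TPM in Col-0. Col FRI and Col-0 overlapped, with means of 2.85 and 2.86 TPM, and the log2 fold change was 0.04 (95% interval -0.20 to 0.29, edgeR adjusted p = 0.827). 35S::FCA lay above both other genotypes in TPM, but on nuclear TPM it overlapped each of them, and its log2 fold change against Col-0 was 0.17 (95% interval -0.07 to 0.41, edgeR adjusted p = 0.422). Against 35S::FCA, Col FRI had -0.13 (95% interval -0.37 to 0.12, adjusted p = 0.464). The largest change inside these intervals, a log2 value of 0.41, is smaller than either JMJ30 difference of Col FRI. ELF6 overlaps AT5G04238 on the other strand.

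JMJ32 (AT3G45880, chr3:16868914-16871609, minus strand) was the least abundant member, with 28 to 51 estimated counts in a library of Col FRI, 53 to 85 for 35S::FCA, and from 46 to 80 for Col-0. It had 0.976, 0.688 and 0.805 TPM in Col FRI, 1.05, 1.04 and 1.27 TPM in 35S::FCA, and 1.21, 0.881 and 0.833 TPM in Col-0. Col FRI lay below 35S::FCA in TPM and overlapped it on nuclear TPM, and the other pairs overlapped on both scales. At this depth the 95% interval of its log2 fold change ran from -0.68 to 0.32 in Col FRI against Col-0, from -0.35 to 0.62 in 35S::FCA against Col-0 and from -0.81 to 0.18 in Col FRI against 35S::FCA, with edgeR adjusted p of 0.631, 0.789 and 0.372. In both comparisons of Col FRI, a difference as large as that of its relative JMJ30 lies outside these intervals, and smaller ones inside them remain possible. The locus overlaps AT3G45870 and AT3G45890 on the plus strand. How the counting treated strand is not given in the sources used here, so for JMJ32, JMJ13 and ELF6 reads of the overlapping genes may be mixed in.

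The 3 trithorax genes were close in level and did not change by the test. ATX1 (AT2G31650, chr2:13455272-13462431, minus strand), which trimethylates H3K4 at FLC, had 1.45, 1.45 and 1.28 TPM in Col FRI, 1.06, 1.58 and 1.36 TPM in 35S::FCA, and 1.54, 1.58 and 1.61 TPM in Col-0. Col FRI lay just below Col-0 in TPM and overlapped it on nuclear TPM, and the log2 fold change was -0.13 (95% interval -0.44 to 0.17, edgeR adjusted p = 0.551). In 35S::FCA against Col-0 it was -0.34 (95% interval -0.64 to -0.04, edgeR unadjusted p = 0.0317, adjusted p = 0.214), and the groups overlapped.

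ATX2 (AT1G05830, chr1:1754130-1761909, plus strand), its closest relative, had 1.55, 1.54 and 1.42 TPM in Col FRI, 1.40, 1.51 and 1.60 TPM in 35S::FCA, and 1.64, 1.61 and 1.64 TPM in Col-0. Both other genotypes lay below Col-0 in TPM, by differences in mean of 0.127 and 0.128, and both overlapped it on nuclear TPM. The log2 fold changes were -0.07 in Col FRI (95% interval -0.35 to 0.21, edgeR adjusted p = 0.75) and -0.20 in 35S::FCA (95% interval -0.48 to 0.08, adjusted p = 0.422). ATXR7 (AT5G42400, listed by RefSeq as SDG25; chr5:16953515-16961245, minus strand), a SET-domain gene needed for full FLC expression, had 1.63, 1.54 and 1.60 TPM in Col FRI, 1.36, 1.68 and 1.39 TPM in 35S::FCA, and 1.51, 1.24 and 1.59 TPM in Col-0. All pairs overlapped in TPM, and the log2 fold changes against Col-0 were 0.18 in Col FRI and -0.06 in 35S::FCA, with edgeR adjusted p of 0.48 and 0.871. For Col FRI against 35S::FCA the 3 genes had log2 fold changes of 0.13 to 0.24, with edgeR adjusted p of 0.329 to 0.536. All 3 overlapped there in TPM, whereas on nuclear TPM Col FRI lay above 35S::FCA for ATX2 (2.38 to 2.69 against 2.15 to 2.34) and for ATXR7 (2.56 to 2.82 against 2.04 to 2.44).

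In 35S::FCA against Col-0, 0 of the 8 members were called higher, where 0.490% of all genes were, and 0 lower, where 1.03% were. The stricter rule called 0.00538% of genes there, and 0 members. At an unadjusted p under 0.05 the edgeR test had 2 members in that comparison, REF6 and ATX1, and DESeq2 and both limma fits called 0. The comparisons of Col FRI and of 35S::FCA with Col-0 use the same 3 Col-0 libraries. For an exact permutation test of 3 libraries against 3 the smallest p is 0.1 (two-sided), so this test cannot pass 0.05. That p was reached in 10 of the 24 comparisons of a member in TPM and in 7 of 24 on nuclear TPM, the same in which the libraries did not overlap. The share of all genes that separate in this way was not computed, so these counts are not read as a property of the members. Of these, 3 on each scale are edgeR calls, namely JMJ30 in Col FRI against Col-0 and against 35S::FCA, and REF6 in Col FRI against Col-0.

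Of 16 other JmjC demethylase genes 15 were tested, and edgeR, DESeq2 and both limma fits called 0 in each of the 3 comparisons. Over all genes edgeR called 6.04% higher and 7.22% lower in Col FRI against Col-0. The shares were 0.490% and 1.03% in 35S::FCA against Col-0, and 7.00% and 5.92% in Col FRI against 35S::FCA. With 15 genes, 0 calls can occur at these shares and are not read as a property of the family. At an unadjusted p under 0.05 edgeR had 3 of them in Col FRI against Col-0, 0 in 35S::FCA against Col-0 and 2 in Col FRI against 35S::FCA. In Col FRI against Col-0 their log2 fold changes ran from -0.32 to 0.47 with a median of -0.03. JMJ14, an H3K4 demethylase and the most abundant of them in Col FRI, averaged 12.2 ± 0.40 TPM in Col FRI, against 11.5 ± 0.97 TPM in Col-0 (SD, n = 3 each). The libraries overlapped, with a log2 fold change of 0.13 (edgeR adjusted p = 0.299).

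Of 9 other trithorax SET and partner genes, 2 were higher in Col FRI than in Col-0 and 0 lower (median log2 fold change 0.26), where 6.04% and 7.22% of all genes were. ULT1, a trithorax-group partner of ATX1, was higher by a log2 fold change of 0.41 (edgeR adjusted p = 0.0127, called in 13 of 18 alternatives). SYD, a SWI/SNF chromatin remodeler, had 5.58, 5.59 and 5.76 TPM in Col FRI, against 4.52, 4.24 and 4.22 TPM in Col-0. Its libraries did not overlap, and the log2 fold change was 0.43 (edgeR adjusted p = 0.0197, called in 10 of 18). It was also higher in Col FRI than in 35S::FCA (0.33, edgeR adjusted p = 0.0474, called in 8 of 18). ATX4, a relative of ATX1 and ATX2, was the 1 gene of the list called in 35S::FCA, with 1.35, 1.38 and 1.34 TPM in 35S::FCA, against 0.868, 0.847 and 0.594 TPM in Col-0. The groups did not overlap, and the log2 fold change of 0.76 (edgeR adjusted p = 0.0463) was called in 5 of 17 alternatives. Of the 6 COMPASS core subunits, which assemble with the SET proteins, WDR5B fell in Col FRI relative to Col-0 (-0.59, edgeR adjusted p = 0.0231, called in 12 of 18), and by any of these tools 0 of 6 were called in the other comparisons (edgeR unadjusted p under 0.05 in 0 for 35S::FCA against Col-0 and 2 for Col FRI against 35S::FCA).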

How the data were processed

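RNA-seq of 9 embryo libraries was analysed. The authors processed the reads with kallisto against TAIR10 models (per the labels), whose version and settings are not given in the sources used here, and deposited an estimated count and a TPM per transcript. The estimated counts deposited are not normalized, and the TPM values of the authors are scaled over all index entries, organelle and ribosomal ones included, so TPM moves with those shares.

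Gene sums of these counts, rounded to whole numbers, were tested by the quasi-likelihood method of edgeR 4.0.16 (R 4.3.3) after filterByExpr and TMM. The fit held all 9 libraries and genotype as its factor, and p was adjusted over all 18585 genes tested. Isoform usage was tested with edgeR's diffSpliceDGE. Replicate levels in TPM were compared with exact permutation tests, and p-values measure the spread between these libraries. The alternatives were DESeq2 1.42.0, its size factors in edgeR, limma 3.58.1 on log2(TPM + 1) and log2(TPM + 0.1), no filter on low counts, only the 2 genotypes compared, a replicate block, length-scaled counts, summed Col FRI libraries, nuclear TPM and each library left out. Functions were tested on simulated data. Nuclear TPM leaves out genes within 5000 bases of a nuclear ribosomal RNA gene.

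The members and the lists (other JmjC demethylases, other trithorax SET and partner genes, COMPASS core subunits, evening and morning clock genes, embryo identity, maturation, seed coat and endosperm markers) were chosen with earlier results of these data known. Genes named are the 8 members, FLC, FRI and FCA, at most 4 called genes per list and comparison, and the 3 genes closest to each called member. CCA1 and JMJ14 were named after their values were seen. Positions and sequences are RefSeq's for TAIR10.1. Of the 11 index models 3 have a RefSeq model of the same length, so model positions were not used. Depth was 15166826 to 25847613 estimated counts per library, with 3 counts taken as the floor.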

Additional observations from a re-analysis of the deposited data

How the results depend on the processing

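Of the alternatives for the members' log2 fold changes, 401 kept their direction and side of the threshold, 9 lost a call, 5 gained one and 9 changed sign, the last all in genes that were not called. For ELF6 in Col FRI against Col-0 the sign changed with limma on log2(TPM + 1) (-0.0061) and log2(TPM + 0.1) (-0.0089) and within the range with 1 library left out (-0.021 to 0.12). For ATX2 in the same comparison it changed within that range (-0.13 to 0.029). For ATXR7 in 35S::FCA against Col-0 it changed with both limma fits (0.018 and 0.029) and within the range with 1 library left out (-0.20 to 0.12). Of the named genes outside the members, 437 alternatives kept the call and 207 lost it, with no change of sign.

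The count of members called in Col FRI against Col-0 (2) became 0 under the stricter rule, 1 in each limma fit, 0 with the Col FRI libraries summed, and 1 to 3 with 1 library left out. In 35S::FCA against Col-0 (0) it was 0 to 1 with 1 library left out. In Col FRI against 35S::FCA (1) it was 2 with only the 2 genotypes compared, 0 with the Col FRI libraries summed, and 1 to 2 with 1 library left out.

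Counts over all genes moved more. In Col FRI against Col-0 (2464) they were 34 under the stricter rule, 479 and 501 in the limma fits, 20 with the Col FRI libraries summed and 611 to 4139 with 1 library left out. In 35S::FCA against Col-0 (283) they were 1 under the stricter rule, 454 without the filter, 642 with DESeq2, 8 with only the 2 genotypes compared, 82 and 81 in the limma fits and 18 to 1608 with 1 library left out. In Col FRI against 35S::FCA (2402) they were 104 under the stricter rule, 4478 with only the 2 genotypes compared, 1033 and 1030 in the limma fits, 76 with the Col FRI libraries summed and 960 to 3724 with 1 library left out. Among the fits with 1 library left out, the highest count in each comparison came without Col-0 replicate 3, and the lowest without replicate 3 of Col FRI in the first and of 35S::FCA in the others. Summing leaves Col FRI as 1 sample, whose spread is then assumed to be that of the other genotypes, so fewer samples enter the test. The cause of the other shifts was not tested.

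Replicate numbers are shared between genotypes. Deviations of libraries from their genotype means correlated at r from -0.11 to 0.27 for the same number, and -0.33 to 0.27 for different numbers. Between 35S::FCA and Col-0, r was 0.22 for replicates 1, 0.27 for replicates 2 and -0.11 for replicates 3. With the replicate number as a block, the JMJ30 and REF6 calls in Col FRI against Col-0 stayed (adjusted p 0.0045 and 0.0399), 2 members were called there, and 1762, 97 and 1965 genes were called in Col FRI against Col-0, 35S::FCA against Col-0 and Col FRI against 35S::FCA. On nuclear TPM, 11 of the 24 log2 ratios of member means moved by more than 1 SD of the replicates. JMJ32, with as few as 28 counts in a library, is the member most limited by depth.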

Other observations

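Embryo, maturation and other marker genes were read in the same libraries. Among all genes, edgeR called 6.04% higher and 7.22% lower in Col FRI against Col-0. The shares were 0.490% and 1.03% in 35S::FCA against Col-0, and 7.00% and 5.92% in Col FRI against 35S::FCA. With lists this short, the calls below are those of single genes and are not read as a property of a list. Of 13 embryo identity genes, ABI3 (log2 fold change 0.45, edgeR adjusted p = 0.00302), a regulator of seed maturation, and WOX9 (0.51, adjusted p = 0.0169), a homeobox gene of the basal embryo, were higher in Col FRI than in Col-0, and PDF2 (-0.30, adjusted p = 0.015), a protoderm homeobox gene, was lower, called in 15, 13 and 12 of 18 alternatives. In 35S::FCA against Col-0 MP, an auxin response factor of embryo patterning, was higher (0.35, edgeR adjusted p = 0.0408, called in 6 of 17 alternatives). In Col FRI against 35S::FCA ABI3 was higher (0.42) and PDF2 (-0.43), MP (-0.26) and PLT1 (-0.56), a root stem cell regulator, were lower, with edgeR adjusted p of 0.00237 to 0.039. These calls held in 15 of 18 alternatives for ABI3, 17 for PDF2, 7 for MP and 9 for PLT1.

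OLEO1, which coats oil bodies in maturing seeds, had 19.1, 24.3 and 25.0 TPM in Col FRI, 4.56, 3.98 and 4.17 TPM in 35S::FCA, and 5.50, 10.6 and 10.2 TPM in Col-0. No Col FRI library overlapped the others, with log2 fold changes of 1.40 against Col-0 (edgeR adjusted p = 0.0103) and 2.55 against 35S::FCA (5.44e-04). CRA1, a seed storage protein gene, had 1 to 3 counts in Col FRI and 0 to 3 in 35S::FCA, against 11 to 16 in Col-0, and was called lower in both comparisons with Col-0 (edgeR adjusted p = 0.0363 and 0.0382), in 6 of 18 and 4 of 17 alternatives. Of the seed coat and endosperm markers, 5 of 6 and 5 of 8 were tested, and 0 were called in any comparison by edgeR, DESeq2 or limma, with 0 at an unadjusted edgeR p under 0.05. With so few genes, 0 calls can occur at the shares over all genes given above. The part of these marker genes in the members' values was not tested.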
